A study of Mus musculus with 6 samples.

Results

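The 35 genes described here, of 35485 genes listed per sample, encode proteins that fold, inspect and discard proteins in the endoplasmic reticulum (ER), or that sense a failure of folding there. They were selected by gene symbol and fall into 3 roles, namely 17 chaperones and folding enzymes, 9 genes of ER-associated degradation (ERAD) and the translocon, and 9 stress sensors, kinases and phosphatase subunits. All 35 were found, and all 35 passed the filter on low values, which asked for a mean RPKM of more than 0.3 in sham or in ONC. Whole retinas of wild type C57BL/6 mice, 12 weeks old, were profiled by RNA-seq 2 days after optic nerve crush (ONC) or after a sham operation that exposed the nerve and left it uncrushed. Each group had 3 samples, and each sample was an RNA pool of 6 retinas from 6 mice, which gives 18 retinas per group. The spread between samples is therefore a spread between pools. Neither group carried an engineered allele, and both had surgery under anesthesia with ketamine and xylazine.

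The ER folds membrane and secreted proteins with the help of Hsp70 and Hsp90 class chaperones, lectin chaperones and disulfide isomerases. Proteins that stay misfolded are taken back across the membrane and degraded by the proteasome, which is ERAD. When unfolded proteins accumulate, the sensors IRE1 (encoded by Ern1), ATF6 and PERK (Eif2ak3) start the unfolded protein response: IRE1 and ATF6 act mainly through XBP1 and cleaved ATF6 on chaperone and ERAD genes, while PERK phosphorylates eIF2α, which slows translation and favors production of the transcription factor ATF4. The kinases GCN2 (Eif2ak4), HRI (Eif2ak1) and PKR (Eif2ak2) phosphorylate the same site in response to amino acid shortage, heme shortage and double-stranded RNA. In retinal ganglion cells (RGCs), the neurons whose axons are crushed by this injury, the PERK and ATF4 arm is a well-known part of the answer to axonal injury.

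Exon reads per sample numbered between 17343945 and 20358008. Exon reads made up 70.9% to 76.6% of the reads on genes in the sham samples and 78.5% to 80.4% in the ONC samples, so that the groups did not overlap. Levels below are exon reads divided by exon length and by the library's exon reads after TMM scaling (trimmed mean of M-values). They are called scaled RPKM here and can be compared between genes. Fold changes are ONC over sham, and adjusted p-values come from the quasi-likelihood test of edgeR with Benjamini-Hochberg adjustment over 13670 genes. In whole retina, fewer cells of a type and less RNA per cell cannot be told apart.

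After ONC, 1 of the 35 genes was upregulated at an adjusted p under 0.1 and 1 was downregulated. Herpud1, an ERAD component of the ER membrane, rose 1.33-fold, and Canx, which encodes the lectin chaperone calnexin, fell to 0.866 of its sham level. Of all genes tested, 2.38% were called higher, 3.72% lower and 6.09% in either direction by the same rule. None of the 35 passed an adjusted p under 0.1 together with a fold change above 1.5, a combination that 1.66% of all genes passed. At an unadjusted p under 0.05, 4 of the 35 were found (Herpud1, Canx, Dnajc3 and Ppp1r15a), against 16.7% of all genes. DESeq2 called the same 2 genes, Herpud1 and Canx.

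For most of these genes, the data limited the change in whole retina to a small one. The values are averages over the tissue, in which the paper describes RGCs as a very small share. A change confined to RGCs was not measured. For 32 of the 35, the 95% interval of the fold change lay inside 1.5-fold in both directions, which was so for 72.4% of all genes. The exceptions were Sdf2l1, Derl3 and Eif2ak2, whose levels were among the lowest of the 35. All 3 ONC samples were above all 3 sham samples for 3 of the 35 genes and below them for 3, against 11.0% and 10.8% of all genes. The median log2 fold change of the 35 was -0.02, beside 0.01 for all genes tested.

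RNA levels of some cell type markers also differed between the groups. Of 9 RGC markers, 8 were lower and 1 (Slc17a6) was higher after ONC, and their summed scaled RPKM was 569 to 635 in sham and 399 to 430.2 in ONC. Of 10 microglia and macrophage markers, 5 were higher and 0 lower, and their sum was 28.0 to 33.5 in sham and 47.0 to 52.5 in ONC. No marker of either list was at 0 in any sample. Of the rod markers, 2 of 7 were higher (sum 26468 to 28105 in sham and 26636 to 29157 in ONC). None of 8 Müller glia and astrocyte, 5 endothelial and 6 pigment epithelium markers was called, by edgeR at an adjusted p under 0.1; at an unadjusted p under 0.05 there were 3, 0 and 0. Of 4 lens markers tested, 1 (Cryaa) was higher, and the lens sum was 72.3 in sham replicate 1, 8.20 and 15.0 in the other sham samples and 66.9 to 89.6 in ONC. The part of these shifts in the values of the 35 genes and of the other pathway genes was not tested.

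**Figure D1:**
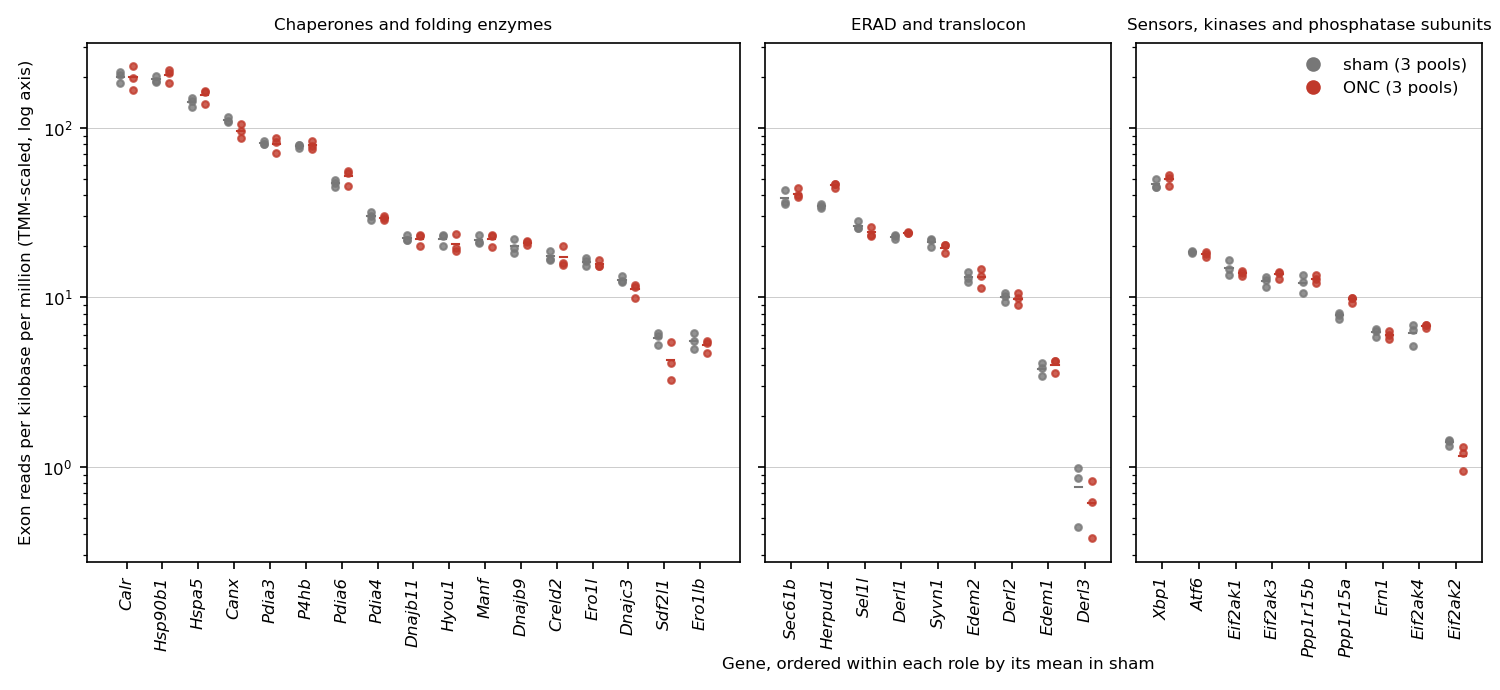
Level of each of the 35 genes in every sample, as scaled RPKM on a log axis, in 3 panels by role. Points are pools of 6 retinas, gray for sham and red for ONC, and bars are group means; the points of the groups are apart for Herpud1 and intermixed for most genes.

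The chaperones and folding enzymes were the most abundant of the 3 roles. Their levels ran from about 201 for Calr (201 ± 15.0 in sham, SD, n = 3), a lectin chaperone that holds calcium, to 5.55 ± 0.601 for Ero1lb, an oxidase that supplies disulfide bonds. Of the 17 genes, 0 were called higher and 1 was called lower by edgeR, 0 higher and 1 lower by DESeq2, and 2 had an unadjusted p under 0.05. Point estimates were positive for 6 genes and negative for 11, beside 7147 and 6523 of all 13670 genes. The median log2 fold change of the 17 was -0.02, and it was 0.10 when scaled by all reads on genes.

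Hspa5 encodes BiP, the Hsp70 chaperone of the ER lumen whose level is the usual readout of an unfolded protein response. Its scaled RPKM was 134, 144 and 151 in the sham samples and 166, 163 and 139 in the ONC samples. ONC replicates 1 and 2 were above every sham sample, while ONC replicate 3 lay within the sham range. The log2 fold change was 0.12 ± 0.07 (SE), with a 95% interval from -0.02 to 0.27 and an adjusted p of 0.369. With TMM scaling, a rise beyond 1.20-fold in whole retina thus lay outside the interval. Scaled by all reads on genes, the log2 fold change was 0.25 (adjusted p = 0.0344 in edgeR). On that scale 11.0% of all genes were called higher.

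The promoter of Hspa5 carries an ER stress response element (ERSE), the sequence through which ATF6 and XBP1 are known to act on chaperone genes. It is shown because it is the model for the sites found in the other chaperone genes. In the 250 bases before the RefSeq start (GRCm38.p6, chr2:34771840-34772089, plus strand), capitals mark CCAAT and CCACG with 9 bases between them, at positions -65 to -47.
Hspa5 promoter: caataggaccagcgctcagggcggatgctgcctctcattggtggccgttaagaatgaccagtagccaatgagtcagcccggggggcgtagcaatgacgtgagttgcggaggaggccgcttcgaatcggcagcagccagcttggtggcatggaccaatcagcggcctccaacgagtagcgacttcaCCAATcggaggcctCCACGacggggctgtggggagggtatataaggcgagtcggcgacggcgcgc

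Hsp90b1 encodes GRP94, the Hsp90 chaperone of the ER. Its scaled RPKM was 188, 189 and 203 in sham and 220.0, 210.1 and 184 in ONC, and the groups overlapped because ONC replicate 3 was the lowest of all 6 samples. The log2 fold change was 0.08 ± 0.06 (adjusted p = 0.538). Calr was measured at 185, 204 and 214 in sham and at 231, 197 and 168 in ONC. The ONC samples thus held both the highest and the lowest Calr level, and the log2 fold change was -0.02 ± 0.09 (adjusted p = 0.947).

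Canx was the chaperone with a call. Calnexin keeps glycoproteins in the ER until they are folded and is the membrane-bound partner of calreticulin. Its scaled RPKM was 109.6, 116 and 109 in sham and 105, 96.4 and 87.5 in ONC, so the highest ONC value was below the lowest sham value. The log2 fold change was -0.21 ± 0.06 (95% interval -0.34 to -0.07, adjusted p = 0.0778). The call rested on the full set of samples: adjusted p was 0.145, 0.326 and 0.186 without sham replicates 1, 2 and 3, and 0.159 and 0.343 without ONC replicates 2 and 3, and it was 4.35e-04 without ONC replicate 1. Without ONC replicate 1, Hyou1 (an Hsp70 family chaperone and exchange factor) and Sel1l were called lower as well, with log2 fold changes of -0.22 and -0.18. Of all genes, 1270 of 13705 were called lower in that fit, against 508 of 13670 with all samples. Without sham replicates 1, 2 and 3 and ONC replicates 2 and 3, the count over all genes was 424, 220, 231, 261 and 272.

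Co-chaperones of BiP did not pass the threshold. Dnajb9 (ERdj4), a strong target of the IRE1 arm in many cell types, was at 22.2, 18.2 and 19.4 in sham and at 21.4, 21.2 and 20.4 in ONC (log2 fold change 0.07 ± 0.09, adjusted p = 0.753). All 3 ONC values lay within the sham range. Sdf2l1, a partner of the ER DnaJ proteins, was at 5.27, 6.20 and 5.89 in sham and at 3.23, 5.46 and 4.12 in ONC. ONC replicates 1 and 3 were below all sham samples and ONC replicate 2 was within their range. With 71 to 125 exon reads per sample, its interval was wide (log2 fold change -0.44 ± 0.23, 95% interval -0.92 to 0.04, adjusted p = 0.349). Dnajc3 (p58IPK), an inhibitor of the eIF2α kinases and a BiP co-chaperone, was at 12.3, 13.5 and 12.5 in sham and at 9.97, 11.9 and 11.6 in ONC. Its groups did not overlap, but its adjusted p was 0.230 (log2 fold change -0.19 ± 0.08, unadjusted p = 0.0283).

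The other 10 chaperone and folding genes (Hyou1, Dnajb11, Creld2, Manf, Pdia3, Pdia4, Pdia6, P4hb, Ero1l and Ero1lb) had overlapping groups. Their log2 fold changes lay between -0.11 for Hyou1 and 0.13 for the disulfide isomerase Pdia6. A part of the exon reads of Ero1l is shared with other places in the genome (69.4% were unique), so its level is uncertain.

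The order of the pools was also counted among the chaperones. It was not counted over all genes, so it is not known to be particular to this role. ONC replicate 3 had the lowest ONC level for 13 of the 17 genes, and ONC replicate 1 had the highest for 9. In the ERAD and sensor roles, ONC replicate 3 was the lowest ONC sample for 4 of 9 genes each. Among the sham samples, replicate 1 was lowest for 10 of the 17. The summed level of the 17 genes was 989, 1038 and 1061 in sham and 1117, 1056 and 933 in ONC, and so the ONC pools lay on both sides of the sham pools. These genes share the libraries and their scaling, and no test was made of the joint movement.

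ERSE sites were frequent in this role and rare among all promoters. Promoter sequences of 300 bases (250 before and 50 after the start, RefSeq, GRCm38.p6) were at hand for 30 of the 35 genes; Hyou1, Manf, Derl1, Atf6 and Ppp1r15b had none. ERSE on either strand was found in 8 of 15 chaperone and folding genes, 2 of 8 ERAD genes and 0 of 7 sensor genes, and in 0.119% of all 32851 promoters. ERSE-II (ATTGG, 1 base, CCACG) was found in Dnajb11 and Herpud1 and in 0.0365% of all promoters. The motifs were chosen with the results known, and their letters were read as a description of the promoters. The ERSE sites of the chaperone and folding genes are given on the strand of the motif, with its fixed ends in capitals, to show how much the middle bases differ.
Hspa5: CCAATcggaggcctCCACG
Hsp90b1, site farther from the start: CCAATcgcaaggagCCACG
Hsp90b1, site nearer to the start: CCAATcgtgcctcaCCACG
Calr: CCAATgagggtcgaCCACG
Canx: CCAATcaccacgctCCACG
Dnajc3: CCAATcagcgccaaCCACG
Creld2: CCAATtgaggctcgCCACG
Pdia6: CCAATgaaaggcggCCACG
Ero1lb: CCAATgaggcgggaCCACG

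Among the 10 genes with ERSE, 0 were called higher and 1, Canx, was called lower. Their log2 fold changes ran from -0.32 to 0.13, with a median of -0.05. The site was thus present in genes with positive and with negative estimates.

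**Figure D2:**
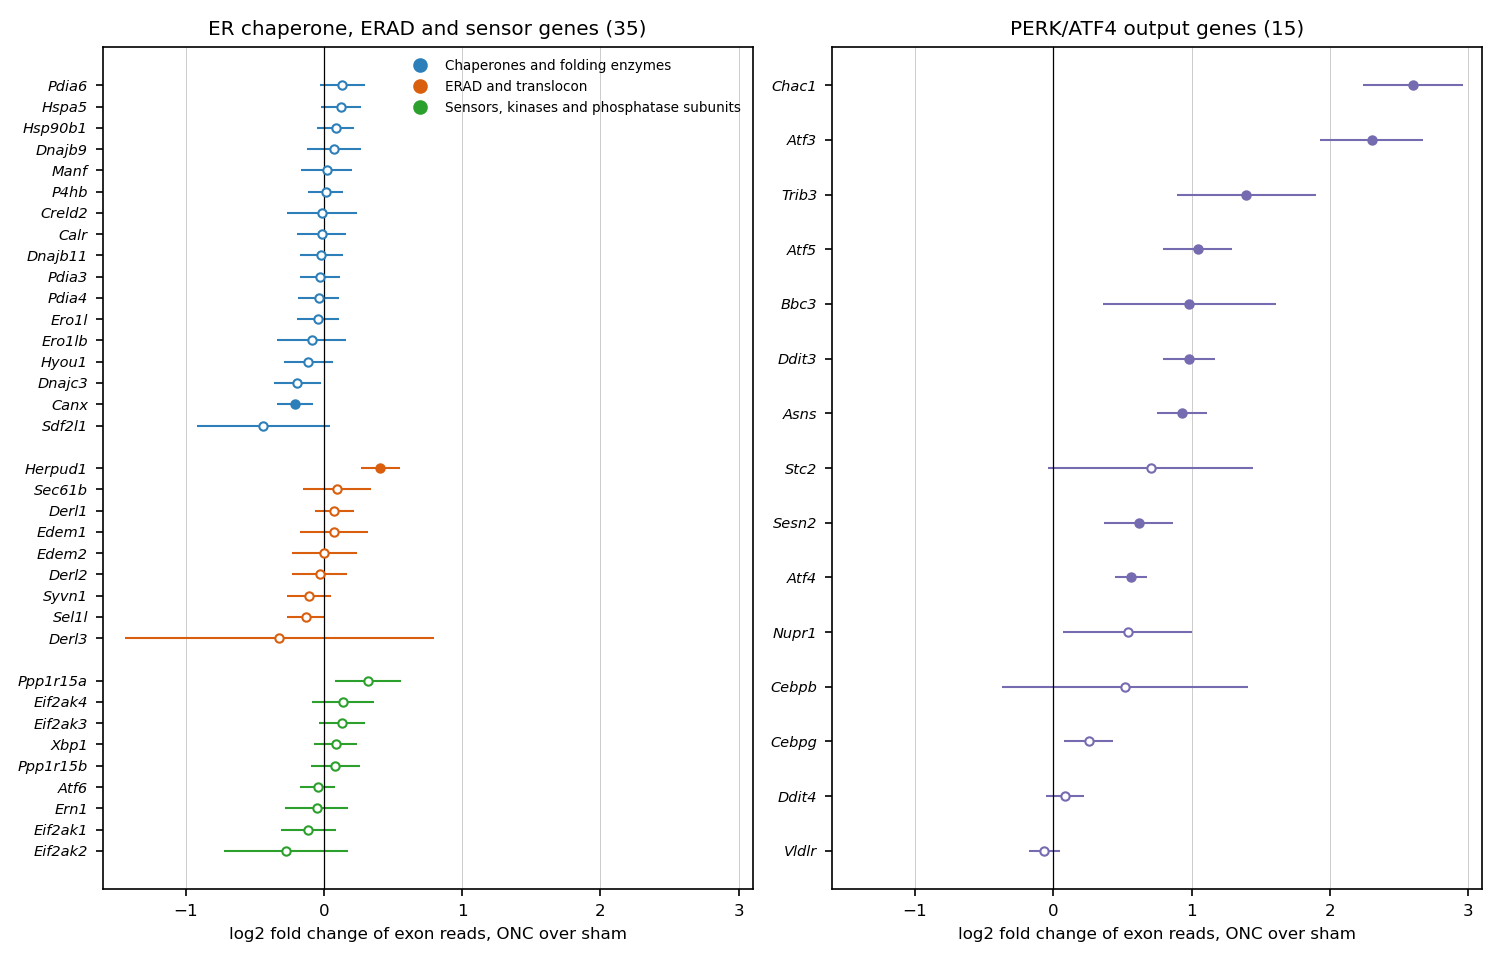
Log2 fold change of exon reads (ONC over sham) with its 95% interval for the 35 genes, colored by role (left), and for 15 genes of the PERK/ATF4 output (right) on the same axis. Filled points have an adjusted p under 0.1 and open points do not; on the left only Herpud1 and Canx are filled, and on the right 9 of 15 are.

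Herpud1 stood apart within ERAD. Its protein brings the ubiquitin ligase HRD1 (Syvn1) and the Derlins together, and the gene is known as a target of both the ATF6/XBP1 and the ATF4 arms. The scaled RPKM was 33.5, 35.3 and 34.7 in sham and 44.3, 46.6 and 46.6 in ONC, from 1097 to 1203 exon reads in sham and 1644 to 1814 in ONC. The lowest ONC sample was above the highest sample of sham, and the spread within a group was small (SD 0.904 in sham and 1.32 in ONC, n = 3). The log2 fold change was 0.41 ± 0.07 (95% interval of the fold 1.20 to 1.47, adjusted p = 9.39e-04). It was called higher under every alternative tried, with log2 fold changes between 0.38 and 0.53.

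The promoter of Herpud1 is shown because it holds both kinds of element. In the 250 bases before the RefSeq start (GRCm38.p6, chr8:94386179-94386428, plus strand), capitals mark a C/EBP-ATF response element, the binding sequence of ATF4 (CARE, TGATGCAA, here on the opposite strand at -112 to -105) and an ERSE-II site at -52 to -42.
Herpud1 promoter: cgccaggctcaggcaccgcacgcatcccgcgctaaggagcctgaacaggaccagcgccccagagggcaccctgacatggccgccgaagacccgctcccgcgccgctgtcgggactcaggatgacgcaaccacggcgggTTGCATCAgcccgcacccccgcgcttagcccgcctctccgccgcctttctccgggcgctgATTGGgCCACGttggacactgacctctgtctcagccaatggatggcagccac

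CARE in this exact form was found in 0.895% of all promoters and, among the 30 genes with a promoter sequence, in Herpud1 only. ERSE or ERSE-II was found in 12 of the 30 genes and in 49 genes of all, and Herpud1 was the 1 gene among these 49 that also held CARE. XBP1's preferred motif UPRE (TGACGTGG, 0.676% of promoters, which overlaps the CCACG end of ERSE on the other strand) was found in 0 of the 30. The cyclic AMP response element CRE (TGACGTCA, 1.79% of promoters) was found in Ppp1r15a alone.

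The other 8 genes of this role did not pass the threshold. The mannosidase-like Edem1 and Edem2, the ligase Syvn1 and its adaptor Sel1l, the Derlins Derl1, Derl2 and Derl3 and the translocon subunit Sec61b had log2 fold changes between -0.32 for Derl3 and 0.09 for Sec61b. Derl3 had 10 to 24 exon reads per sample and a standard error of 0.53. The 95% interval of its fold ran from 0.369 to 1.74, and changes inside it were not detectable at this depth. Sel1l, which is needed for HRD1 stability, had a log2 fold change of -0.13 ± 0.07 (adjusted p = 0.333). Derl1 was slightly higher in every ONC sample than in any sham sample, by a log2 fold change of 0.08 (adjusted p = 0.623). The median over the 9 genes was 0.00 on the log2 scale. The summed level was 175, 171 and 167 in sham and 184, 182 and 180.4 in ONC. Of this sum, Herpud1 alone made up 33.5, 35.3 and 34.7 in sham and 44.3, 46.6 and 46.6 in ONC. The higher sum is thus not a rise shared by the role.

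Among the sensors and phosphatase subunits, 0 of 9 genes were called in either direction by edgeR or DESeq2, and 1, Ppp1r15a, had an unadjusted p under 0.05. Xbp1 was the most abundant, at 45.1, 50.2 and 45.0 in sham and 50.6, 52.9 and 45.4 in ONC (log2 fold change 0.09 ± 0.07, adjusted p = 0.608). The groups overlapped. The counts are sums over each gene and do not separate the spliced form of Xbp1 that IRE1 makes, so they say nothing on IRE1 activity. Likewise, cleavage of ATF6 and phosphorylation of the kinases are not seen in RNA counts.

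For the sensors, the intervals were narrow and included 0. Ern1 was at 6.46, 5.80 and 6.36 in sham and at 5.68, 5.96 and 6.31 in ONC (log2 fold change -0.05 ± 0.11, adjusted p = 0.852). Atf6 was at 18.9, 18.1 and 18.4 in sham and at 18.4, 18.0 and 17.4 in ONC (-0.04 ± 0.06, adjusted p = 0.770). In both genes the groups overlapped, and the 95% interval ran from -0.28 to 0.17 for Ern1 and from -0.17 to 0.08 for Atf6.

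The 4 eIF2α kinases were also not called. Eif2ak3, which encodes PERK, was at 12.6, 13.2 and 11.6 in sham and at 14.0, 14.1 and 12.8 in ONC (0.13 ± 0.08, adjusted p = 0.429). Eif2ak4, which encodes GCN2, was at 5.15, 6.86 and 6.46 in sham and at 6.86, 6.55 and 6.91 in ONC (0.14 ± 0.11, adjusted p = 0.550). For both genes, 2 ONC samples were above all sham samples and the groups overlapped. Eif2ak1, which encodes HRI, was at 14.7, 16.6 and 13.6 in sham and at 13.4, 13.9 and 14.2 in ONC (-0.11 ± 0.10, adjusted p = 0.593). Eif2ak2, which encodes PKR, was the lowest, at 1.42, 1.32 and 1.44 in sham and at 1.31, 1.21 and 0.944 in ONC. All of its ONC values were below sham by a margin that the test did not call (-0.27 ± 0.22, adjusted p = 0.559).

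Ppp1r15a and Ppp1r15b encode subunits that direct protein phosphatase 1 to eIF2α and so end the block of translation; Ppp1r15a (GADD34) is the inducible one and a known ATF4 target. Ppp1r15a was at 7.43, 8.12 and 7.89 in sham and at 9.97, 9.28 and 9.97 in ONC. Every ONC sample was above every sham sample, and the log2 fold change was 0.32 ± 0.11 (95% interval 0.08 to 0.55), but the adjusted p was 0.142. Ppp1r15b, the constitutive subunit, was at 13.5, 10.7 and 12.3 in sham and at 12.9, 12.2 and 13.6 in ONC (0.08 ± 0.08, adjusted p = 0.671), and the groups overlapped. The difference between the responses of these subunits was not tested.

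The scaling decided some of these calls. RPKM divides by all reads on genes, those on introns included, and on that scale the median log2 fold change of all genes was 0.13 instead of 0.01. With this scaling in edgeR, 5 of the 35 genes were called higher and 0 lower, beside 11.0% and 1.63% of all genes (1507 higher and 223 lower, against 325 and 508 with TMM). These were Herpud1, Ppp1r15a (log2 fold change 0.44, adjusted p = 0.0401), Hspa5 (0.25, adjusted p = 0.0344), Hsp90b1 (0.21, adjusted p = 0.0618) and Pdia6 (0.26, adjusted p = 0.0603), while Canx was at -0.09 (adjusted p = 0.458). The deposited RPKM of Hspa5 was 105 ± 4.06 in sham and 125 ± 12.1 in ONC (SD, n = 3). Herpud1 was the 1 gene of the 35 called on both scales.

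Set side by side, the roles differed little. The median log2 fold change was -0.02 for chaperones and folding enzymes, 0.00 for ERAD and translocon genes and 0.08 for sensors and phosphatase subunits, beside 0.01 for all genes. The median deviation from the sham mean, taken per sample as log2(scaled RPKM + 0.5), was 0.07, 0.02 and -0.13 in ONC replicates 1, 2 and 3 for the chaperones. It was -0.02, 0.03 and 0.07 for ERAD and 0.08, 0.01 and 0.02 for the sensors. The chaperone values of the ONC pools spanned more than the shift of any role, and no p was computed for these scores.

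**Figure D3:**
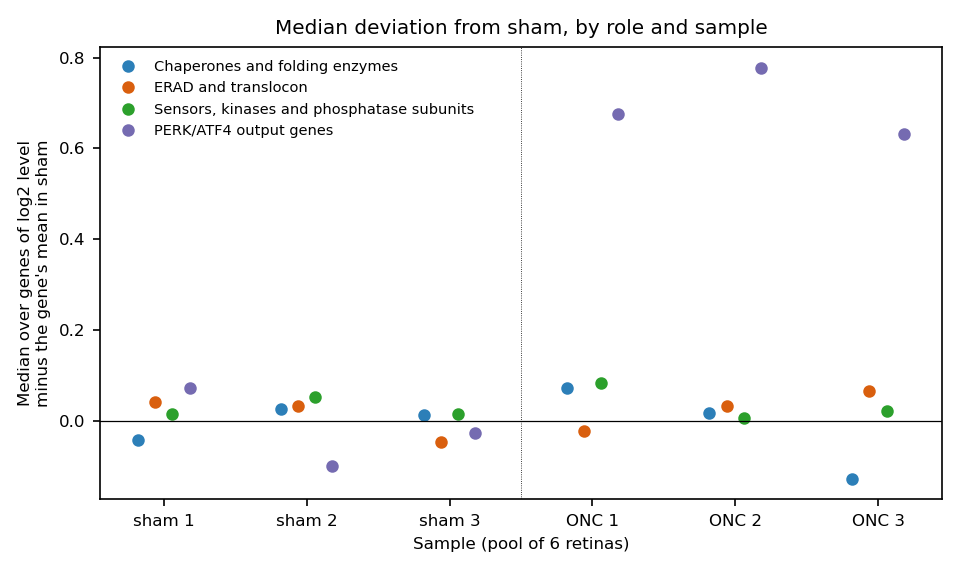
Median over the genes of each role of log2(scaled RPKM + 0.5) minus the gene's mean in sham, for each of the 6 pools. The 3 roles stay between -0.13 and 0.08 in every pool, while the 15 PERK/ATF4 output genes lie between 0.63 and 0.78 in the ONC pools and between -0.10 and 0.07 in the sham pools.

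The other genes of the pathway were read in the same fit, from lists set up for this comparison. Of 42 further ER folding and glycosylation genes tested, 0 were called in either direction by edgeR or DESeq2, and 4 had an unadjusted p under 0.05. Of 45 further ERAD genes, 1 was called higher and 0 lower by edgeR, with 6 at an unadjusted p under 0.05, while DESeq2 also called 1 lower, the lectin gene Erlec1 (named after its values were seen; log2 fold change -0.20 and adjusted p = 0.116 in edgeR). The gene called higher was Ubxn6, a cofactor of the p97 ATPase, at 51.1, 48.3 and 48.5 in sham and 55.1, 60.2 and 56.3 in ONC (log2 fold change 0.21 ± 0.07, adjusted p = 0.0840). That call was lost without any 1 of 5 of the samples, with adjusted p-values of 0.128, 0.273, 0.266, 0.329 and 0.205 without sham replicates 1, 2 and 3 and ONC replicates 2 and 3. Of all genes, 258, 153, 166, 174 and 181 were called higher in these fits, against 325 with all samples. Median log2 fold changes were 0.00 and 0.06 in these 2 lists. All ONC samples were above all sham samples for 1 folding and 9 ERAD genes, and below them for 3 and 1. Of all genes, 11.0% were above and 10.8% below in this way. Without ONC replicate 1, 3 of the folding and 4 of the ERAD genes were called lower, beside 1270 of all 13705 genes.

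Of 28 further regulators of the unfolded protein response and of eIF2, 2 were called higher and 0 lower, beside 2.38% and 3.72% of all genes. At an unadjusted p under 0.05 there were 5 in edgeR, against 16.7% of all genes. All ONC samples were above all sham samples for 8 of the 28 and below them for 1, against 11.0% and 10.8% of all genes. Eif2s2, which encodes the β subunit of eIF2, was at 30.5, 30.1 and 30.6 in sham and at 42.3, 40.5 and 40.4 in ONC (log2 fold change 0.44 ± 0.06, adjusted p = 2.52e-04). Fam129a (Niban), a known target of ATF4, was at 1.18, 1.49 and 1.45 in sham and at 3.38, 3.11 and 3.67 in ONC (1.30 ± 0.17, adjusted p = 5.60e-05). In both, the groups were far apart.

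In calls and fold changes, the PERK/ATF4 output genes stood in contrast to the 35. Of these 15 known targets and members of the ATF4 program, 9 were called higher and 0 lower, and their median log2 fold change was 0.71. PERK is part of the list's name only, since the activity of the eIF2α kinases was not measured. Chac1, a glutathione-degrading enzyme, was at 1.82, 1.58 and 1.76 in sham and at 11.1, 10.5 and 9.77 in ONC (2.60 ± 0.17, adjusted p = 1.67e-08). Atf3, a stress transcription factor, was at 6.48, 2.92 and 4.11 in sham and at 23.3, 21.2 and 22.1 in ONC (2.30 ± 0.18, adjusted p = 7.95e-08). Trib3, a pseudokinase that restrains ATF4, and Atf5, a related factor, had log2 fold changes of 1.40 ± 0.24 and 1.04 ± 0.12. The remaining called genes, named after their values were seen, were Atf4, Ddit3, Asns, Sesn2 and Bbc3, with log2 fold changes from 0.56 for Atf4 to 0.98 for Bbc3 and Ddit3. The call of Bbc3 (adjusted p = 0.0756) was lost without sham replicate 1, 2 or 3 (adjusted p = 0.143, 0.284 and 0.114), without ONC replicate 3 (0.318) and with total gene reads (0.133). Of all genes, 258, 153, 166, 181 and 371 were called higher in these fits, against 325 in the main fit. CARE was found in 4 of the 15 promoters (Atf3, Chac1, Nupr1 and Vldlr), and ERSE and ERSE-II in 0. Members of these lists and of the 35 were picked with results of these data known, so the contrast is a description. An equal gain of RNA is a smaller fold change at a higher sham level. Chac1 and Atf3 were low in sham, as given above, whereas Hspa5 was at 134 to 151 scaled RPKM. The 35 also held low genes that were not called, such as Ern1 at 5.80 to 6.46 and Edem1 at 3.45 to 4.09 in sham. The 15 genes summed to 368 to 403 in sham, so not all were low. The part of the sham level in the contrast was not tested, and the activity of the IRE1 and ATF6 arms was not measured.

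Reads on introns, taken as all reads on a gene less those on its exons, gave another readout of the same libraries. They come from unspliced RNA, from overlapping genes or from exons not annotated, and they were few: 32 of the 35 genes could be tested, with a median standard error of 0.27, beside 0.08 for exon reads. Of the 32, 0 were called higher and 1 was called lower, beside 0.456% and 2.24% of 13391 genes. At an unadjusted p under 0.05, 5 were higher (Hsp90b1, Pdia6, P4hb, Herpud1 and Xbp1) and 2 lower (Ern1 and Atf6), beside 6.47% and 10.7% of all genes. The median log2 fold change of the 32 was 0.02 and that of all genes 0.03.

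Ern1 was the gene called lower in introns. Its intron reads numbered 205, 234 and 249 in sham and 94, 118 and 180 in ONC, with no overlap between groups and a log2 fold change of -0.80 ± 0.20 (adjusted p = 0.0780). Its exon reads showed no such change, as given above. The call was lost without sham replicate 2 or 3 (adjusted p = 0.144 and 0.160) or without ONC replicate 1, 2 or 3 (0.127, 0.343 and 0.181). Of all 13391 genes, 0, 69, 289, 0 and 1 were called lower in these fits, against 300 with all samples. The estimate for Ern1 lay between -0.70 and -0.98 in them. Atf6 had 203, 251 and 410 intron reads in sham and 138, 172 and 184 in ONC, a log2 fold change of -0.76 ± 0.22 that missed the threshold (adjusted p = 0.103). The estimate was -0.48 (adjusted p = 0.367) without sham replicate 3. Atf6 was called lower without sham replicate 1 (-0.93, adjusted p = 0.0416) and with a filter of at least 1 read (-0.76, adjusted p = 0.0125). Without sham replicate 1, 742 of 13391 genes were called lower, and with that filter 910 of 22033. Sham replicate 3, the sample with the lowest share of exon reads, had the most intron reads of Atf6.

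Herpud1 had 48, 22 and 41 intron reads in sham and 61, 64 and 91 in ONC. All ONC counts were above all sham counts, and the log2 fold change was 0.97 ± 0.35 (adjusted p = 0.168, and 0.0854 without sham replicate 1), in the same direction as its exon reads. The intron reads of Canx numbered 118, 119 and 104 in sham and 64, 78 and 117 in ONC (-0.39 ± 0.24, adjusted p = 0.437), and the groups overlapped. Intron reads of Dnajb9, Derl3 and Ppp1r15a were too few to test, with at most 11 per sample. The share of intron reads in a library differed between the groups, and its part in these values was not tested.

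**Figure D4:**
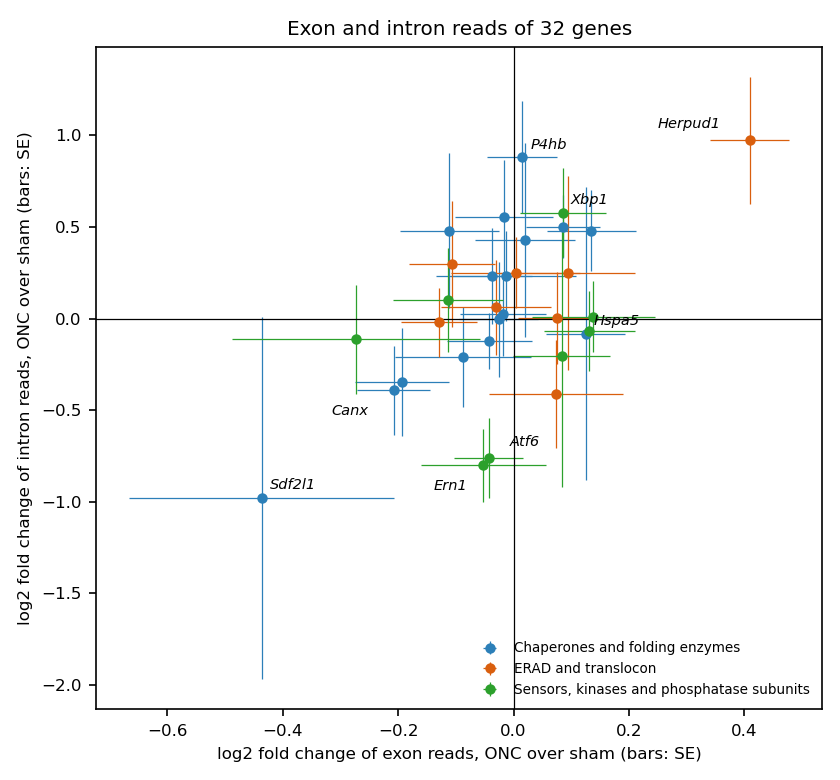
Log2 fold change of intron reads (vertical axis) against that of exon reads (horizontal axis), ONC over sham, for the 32 genes tested in both, colored by role, with standard errors as bars. Herpud1 lies at the upper right (0.41 and 0.97); Ern1 and Atf6 lie low on the vertical axis at exon values near 0.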

How the data were processed

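RNA of whole retinas was sequenced from 3 ONC and 3 sham pools, grouped by their labels (crushed samples are labeled NC). The authors mapped paired reads with CLC Genomics Workbench and deposited, per gene, counts of exon and whole-gene reads without normalization, and RPKM, which divides exon reads by exon length and by all reads on genes. The labels name mm9; 91.3% of 29908 gene starts in the files lay within 1000 bases of RefSeq GRCm38.p6, against 4.59% of 26177 for NCBIM37, so positions are given as in the files and read as GRCm38.

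Total exon counts were compared with edgeR 4.0.16 (TMM, glmQLFit, glmQLFTest, condition as the only term) in R 4.3.3, over the 13670 genes whose mean RPKM exceeded 0.3 in sham or in ONC, with Benjamini-Hochberg adjustment and a threshold of 0.1. The standard error is the log2 fold change divided by the square root of the F statistic. Intron counts (gene reads minus exon reads) were compared the same way after filterByExpr. The biological coefficient of variation was 9.17%. Alternatives used DESeq2 1.42.0, limma 3.58.1 on log2(RPKM + 0.1) and log2(RPKM + 1), other scalings, filters and read classes, and each sample left out. The scripts were tested on simulated counts. The labels do not name a link between samples of the same number, and deviations of same-numbered samples were uncorrelated (r = -0.063, -0.023 and -0.005), so samples were not paired. The p-values of edgeR set the difference between the groups against the spread between pools, which is estimated in part from all genes. The spread between single mice was not measured.

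The 35 genes, the pathway lists and the motifs were chosen with earlier results of these data known. Values in every sample are given for called genes of the 35, for the sensors, kinases and phosphatase subunits, and for Hspa5, Hsp90b1, Calr, Dnajb9, Sdf2l1 and Herpud1. Up to 4 called genes with the largest changes were named per other list. Dnajc3 was added after its values were seen. March6, Vimp, Sels and Fam8a1 of the ERAD list were not analyzed here. Promoters were taken from RefSeq (GRCm38.p6).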

Additional observations from a re-analysis of the deposited data

How the results depend on the processing

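Herpud1 was called higher under all 12 alternatives that kept the 6 samples and without each sample in turn (log2 fold change 0.38 to 0.43 in the latter). Over 22 genes of the 35 and 395 repeats, 354 kept their direction and side of the threshold, 10 lost a call (all of Canx), 11 gained one and 20 changed sign. Of the 35, 1 was called higher and 1 lower in exon reads. With all reads on genes as the scale, 5 were higher and 0 lower, beside 1507 and 223 of all 13670 genes. With limma on log2(RPKM + 0.1) or log2(RPKM + 1), 3 were higher (Hspa5, Herpud1 and Ppp1r15a) and 0 lower. Of all 13670 genes, 978 and 1011 were higher and 143 and 147 lower at these pseudocounts. With total gene reads 2 were higher (Herpud1 and Ppp1r15a) and 0 lower, beside 371 and 762 of all 13670 genes. At an adjusted p under 0.05, 0 were lower. With a replicate block, 0 were lower, since Canx had an adjusted p of 0.108 (log2 fold change -0.21), and it changed no other call of the 22 genes, while Ubxn6 lost its call (adjusted p = 0.142). The numbers do not pair the samples. Without each sample in turn, 1 was called higher and 0 to 3 lower, beside 153 to 779 higher and 220 to 1270 lower of all genes. In intron reads, a filter of at least 1 read over the 6 samples gave 1 higher and 2 lower, beside 198 and 910 of 22033 genes. Leaving out each sample gave 0 to 1 higher and 0 to 2 lower, beside 0 to 171 and 0 to 742 of 13391 genes. The 15 PERK/ATF4 output genes had 8 to 11 called higher and 0 lower in exon reads at an adjusted p under 0.1, under the 12 alternatives and without each sample. The lists of other folding, ERAD and regulator genes had 0, 10 and 7 genes called higher when scaled by all reads on genes, and 1, 6 and 5 with limma at the pseudocount 0.1 (1, 7 and 5 at 1). Without ONC replicate 1, these lists had 3, 4 and 1 genes called lower, beside 1270 of all 13705 genes. The ERAD list had 1 lower with DESeq2 and with a mean RPKM above 1.

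Signs changed in genes with small estimates. Scaled by all reads on genes, and with limma at the pseudocounts 0.1 and 1, the log2 fold change was 0.078, 0.078 and 0.074 for Atf6, 0.106, 0.096 and 0.096 for Calr, 0.0056, 0.014 and 0.012 for Eif2ak1, 0.071, 0.068 and 0.058 for Ern1 and 0.011, 0.0077 and 0.0074 for Hyou1. Calr was also at 0.0063 with exon sums without TMM and at 0.037 with total gene reads, and without each sample in turn it ran from -0.14 to 0.087, and Ppp1r15b from -0.0034 to 0.16. The role medians moved with the scale in the same 3 settings, to 0.127, 0.118 and 0.109 for ERAD, 0.102, 0.096 and 0.095 for chaperones and 0.205, 0.207 and 0.190 for sensors; these settings raise the median of all genes to between 0.11 and 0.13. Without each sample in turn, the medians ran from -0.038 to 0.051 for ERAD and from -0.0034 to 0.070 for sensors. With 3 pools a group, Derl3, Sdf2l1 and Eif2ak2 are known only within wide limits, and intron reads are few. The repeats for the intron fold changes of single genes and for the other pathway genes were added after the data were seen.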
